A study of Mus musculus with 4 samples.

Results

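The genes described here build the hyaluronan-based matrix of the brain. They comprise the lectican core proteins versican (Vcan), neurocan (Ncan), brevican (Bcan) and aggrecan (Acan), the hyaluronan and proteoglycan link proteins Hapln1, Hapln2 and Hapln4, the tenascins Tnr and Tnc, and neuroglycan C (Cspg5). All 10 were found by symbol among the 55403 features of the count matrices. Lecticans bind hyaluronan through their N-terminal domain and tenascins through their C-terminal domain, and link proteins hold the lectican to hyaluronan. Chondroitin sulfate chains attached to the core proteins give the matrix its charge. The same components fill the loose matrix between cells and condense into perineuronal nets, which are best known around parvalbumin-expressing inhibitory neurons, and into the matrix at nodes of Ranvier.

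The study compared single nuclei of frozen, pooled hippocampus from wild-type (WT) mice, from PS19 mice and from PS19 mice with an added SORLA transgene (TG_PS19), all bred as littermates. PS19 mice carry human MAPT, the gene of the protein tau, in its 1N4R form with the P301S mutation under the Prnp promoter, which is active in the brain. TG_PS19 mice carry this allele and, in addition, a SORLA construct at Rosa26 driven by a CMV/β-actin promoter, so that its expression is not limited to a cell type. The title of the series calls the brains aged, and the exact ages, the sex and the number of animals per pool are not given in the sources used here. Xist, the RNA that silences the X chromosome in female cells, stood at 2.52 to 4.06 CPM (counts per 1000000) in the WT and PS19 libraries and at 1064 CPM in the TG_PS19 library. Of the TG_PS19 nuclei, 4568 held Xist counts without Y-linked counts and 2166 held Y-linked counts without Xist. The TG_PS19 pool therefore differed from the other libraries in Xist as well as in genotype.

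There was 1 WT library, 2 PS19 libraries and 1 TG_PS19 library, with 48670533, 20064025, 26198644 and 38971002 unique molecular identifiers (UMIs) in 12762, 4643, 4924 and 9719 barcodes. After filters and removal of likely doublets, 11458, 4467, 4728 and 8963 nuclei were left, and library pairs shared 5 to 32 barcodes. Nuclei were clustered without the matrix genes and without 80 genes of their pathway, and 13 classes with at least 50 nuclei in every library were compared. A class name means only that the clusters resembled that class by its marker genes. The 8 astrocyte markers summed to 16591, 15316, 15287 and 16769 CPM in astrocytes and the 7 oligodendrocyte precursor cell (OPC) markers to 10233, 10972, 11529 and 10605 CPM in OPCs, in the order WT, PS19 replicate 1, PS19 replicate 2 and TG_PS19. This order holds for every run of 4 values below. A class called Enpp6-led oligodendrocytes carried mature oligodendrocyte markers but was led by Enpp6, a gene of newly formed oligodendrocytes, and is kept apart. The class of other excitatory neurons joins clusters that resembled CA3 and subicular or cortical neurons.

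UMIs were summed per class and library, and differences were tested with edgeR's quasi-likelihood test with Benjamini-Hochberg adjustment over all genes of a class. All adjusted p-values below come from it, a call means an adjusted p under 0.05, and ± is the standard error of a log2 fold change. Intervals given for CPM are exact Poisson and those for shares exact binomial 95% intervals, which cover counting error only. Only the PS19 pair is replicated, so the lone WT and TG_PS19 libraries were assumed to vary like that pair. Nothing in the labels says whether the PS19 libraries came from separate animals, so p-values measure the spread between these samples, which may be technical. The comparisons of PS19 with WT and of TG_PS19 with PS19 share the PS19 libraries, so a shift in those libraries alone would appear in both with opposite sign.

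In the mouse genome (GRCm38, GENCODE M21) each lectican gene lies next to a link protein gene, with 0 coding genes between them. Vcan (chromosome 13, 89655312 to 89742509, minus strand) lies 43659 bases from Hapln1 (89539796 to 89611652, plus strand). Bcan (chromosome 3, 87987531 to 88000230, minus strand) lies 21519 bases from Hapln2 (88021750 to 88027583, minus strand). Ncan (chromosome 8, 70093085 to 70120873, minus strand) lies 2222 bases from Hapln4 (70083457 to 70090862, plus strand), and Acan (chromosome 7, 79053483 to 79115099, plus strand) ends 2 bases from Hapln3. Tnr (chromosome 1, 159523769 to 159931729, plus strand), Tnc (chromosome 4, 63959785 to 64047015, minus strand) and Cspg5 (chromosome 9, 110243783 to 110262576, plus strand) stand alone. Annotated non-coding genes or pseudogenes overlap Tnr, Vcan, Tnc, Cspg5, Ncan and Hapln1, and whether the counting used the strand is not stated. Some of these overlapping genes, such as 8030451A03Rik at Tnc, have counts of their own. Whether each read was given to the right gene could not be checked.

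Of the 10 genes, 8 had a start region in the RefSeq table (GRCm38.p6), and Hapln4 and Cspg5 had none. The 250 bases before the start are shown for 4 genes that the results below turn on and whose windows overlap no annotated exon: Tnr, the member of OPCs and neurons, and the 3 lecticans Bcan, Acan and Vcan. The windows are chr1:159523519-159523768 (plus strand) for Tnr, chr3:88000357-88000606 (minus) for Bcan, chr7:79052976-79053225 (plus) for Acan and chr13:89742513-89742762 (minus) for Vcan. Each is written 5′ to 3′ along its gene, and capitals mark matches to any of 4 motifs searched on both strands, which may overlap each other. The motifs were the TATA box TATAAA, the GC box GGGCGG and the core of SOX factor sites, ACAAT. A half-site of the NFI family of transcription factors was also searched, with the letters TTGGC.
Tnr: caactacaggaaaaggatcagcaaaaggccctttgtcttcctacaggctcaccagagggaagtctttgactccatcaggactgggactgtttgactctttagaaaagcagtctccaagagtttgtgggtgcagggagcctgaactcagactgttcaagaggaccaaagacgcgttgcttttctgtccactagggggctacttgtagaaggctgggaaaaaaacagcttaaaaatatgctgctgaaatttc
Bcan: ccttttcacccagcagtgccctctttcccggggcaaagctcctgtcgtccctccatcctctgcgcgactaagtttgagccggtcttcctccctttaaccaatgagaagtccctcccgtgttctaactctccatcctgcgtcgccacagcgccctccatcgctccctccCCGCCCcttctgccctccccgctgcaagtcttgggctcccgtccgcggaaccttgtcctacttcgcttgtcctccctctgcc
Acan: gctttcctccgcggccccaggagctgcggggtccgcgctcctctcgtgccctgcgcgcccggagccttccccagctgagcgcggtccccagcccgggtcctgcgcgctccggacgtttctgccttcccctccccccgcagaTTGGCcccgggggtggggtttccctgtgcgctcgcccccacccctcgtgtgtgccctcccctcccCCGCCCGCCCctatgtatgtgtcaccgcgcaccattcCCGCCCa
Vcan: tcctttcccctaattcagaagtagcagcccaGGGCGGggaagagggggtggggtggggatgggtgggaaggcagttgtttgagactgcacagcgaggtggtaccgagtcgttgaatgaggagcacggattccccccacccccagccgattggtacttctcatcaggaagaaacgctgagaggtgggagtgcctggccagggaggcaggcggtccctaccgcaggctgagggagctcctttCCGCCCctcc
The Tnr window, at 46.8% GC, held no match to the 4 motifs. The lectican windows were richer in GC, at 62% for Bcan, 74.4% for Acan and 62.4% for Vcan, beside a median of 52.4% over 32851 windows. They held 1, 3 and 2 GC boxes, and 2 of the Acan boxes overlap. Acan also held 1 NFI half-site, 109 bases before the start. Of all windows, 32.7% held a GC box, 41.5% an NFI half-site, 27.7% a SOX core and 12.4% a TATA box, so matches of this kind are common and describe letters only.

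OPCs and astrocytes led most of the set among the 13 classes compared. Of these classes, OPCs had the highest level of Vcan, Acan, Tnr and Cspg5 in every library, astrocytes that of Bcan, Hapln1 and Tnc, and the Enpp6-led oligodendrocytes that of Hapln2. In all, 8 of the 10 genes had the same leading class in all 4 libraries. Ncan and Hapln4 were the exceptions. Differentiating OPCs, with 9 to 29 nuclei per library, were too few to be among the 13 classes and held more Tnr than OPCs in every library. These class levels are a description without a test, since the classes were made from the same nuclei.

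**Figure D1:**
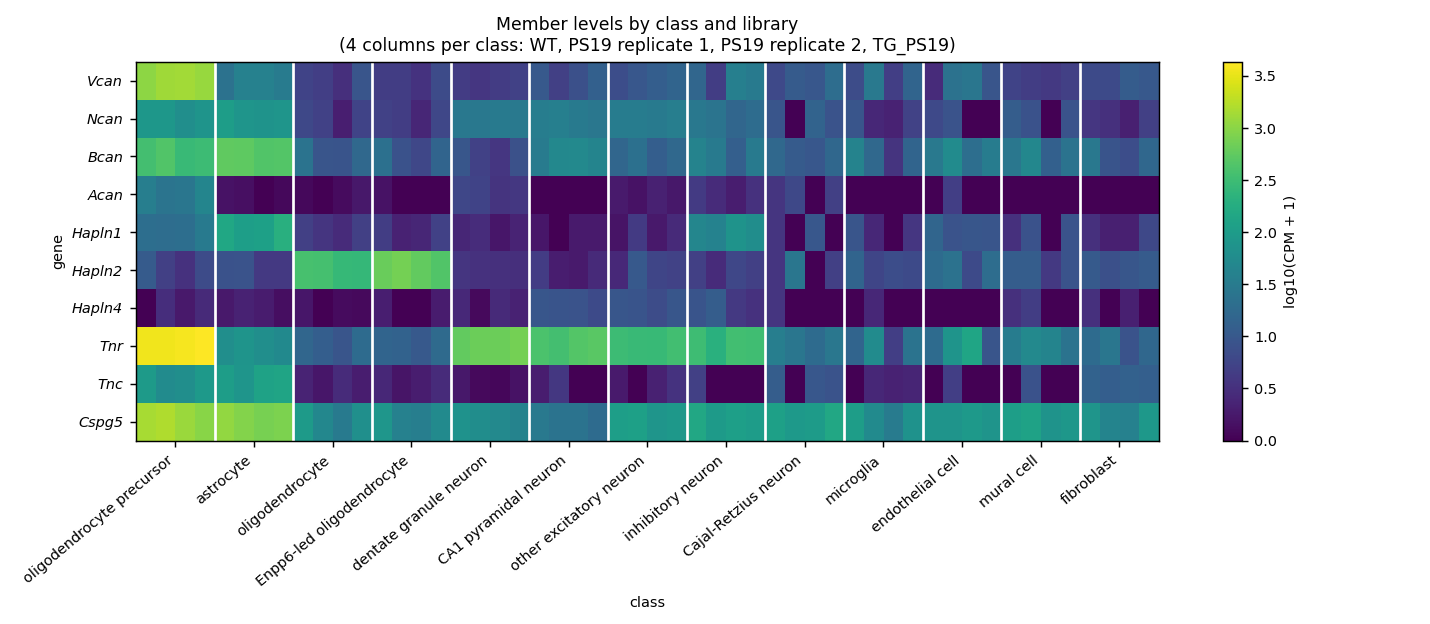
Level of each matrix gene (rows) in 13 classes of nuclei (blocks of 4 columns: WT, PS19 replicate 1, PS19 replicate 2, TG_PS19), coloured by log10(CPM + 1). Vcan, Acan and Tnr are highest in oligodendrocyte precursors, Hapln1 in astrocytes and Hapln2 in the 2 oligodendrocyte classes, in every library.

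Vcan, the large lectican of OPCs and of the loose matrix, stood at 1028, 1321, 1340.0 and 1193 CPM in OPCs. The next of the 13 classes, astrocytes, held 22.8, 39.1, 38.8 and 31.6 CPM, and the ranges of the classes did not overlap. OPCs held 77.3%, 82.7%, 80.8% and 84.4% of all Vcan UMIs of kept nuclei. To compare shares of nuclei at 1 depth, each nucleus was thinned to 1000 UMIs. Of the thinned OPCs, 62.9%, 65.8%, 72.4% and 64.1% had a Vcan UMI, against 0.716%, 0%, 0% and 1.52% of microglia, a class that should lack it. Where the share was 0%, its exact 95% interval reached 1.44% in PS19 replicate 1 and 1.30% in PS19 replicate 2. Before thinning the shares were 90.7%, 98.2%, 97.5% and 93.3% in OPCs and 1.02%, 0.772%, 1.06% and 2.19% in microglia, at median depths of 3383, 4358, 5117 and 3827 UMIs and 1606, 2200.0, 2574 and 1643 UMIs. Thinning left out 0, 0, 0 and 1 OPCs, 31, 4, 1 and 16 microglia, 11, 2, 2 and 16 astrocytes and 58, 15, 5 and 101 oligodendrocytes as too shallow.

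Acan, the main lectican of perineuronal nets, was a gene of OPCs in these nuclei. Its level there was 35.3, 23.8, 25.5 and 44.2 CPM, from 46, 24, 34 and 101 UMIs, and OPCs held 39.7%, 46.2%, 57.6% and 71.6% of its UMIs. Dentate granule neurons, the principal cells of the dentate gyrus, stood at 4.85, 4.44, 2.54 and 2.90 CPM, from 54, 19, 15 and 24 UMIs. In WT these were more UMIs than OPCs held. The inhibitory neurons, among which net-bearing cells are known, held only 4, 1, 1 and 3 UMIs.

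Ncan, a lectican of the young brain that persists in astrocytes, stood at 104, 76.9, 73.4 and 77.9 CPM in astrocytes and at 83.5, 82.2, 60.7 and 74.4 CPM in OPCs. The ranges overlapped, and which class led changed between libraries. Excitatory neurons carried it at a lower level, with 32.4, 32.3, 29.8 and 34.3 CPM in the class of other excitatory neurons and 27.1, 28.0, 29.5 and 28.0 CPM in dentate granule neurons.

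Bcan, the lectican that is anchored to membranes or secreted by glia, was at 552, 541, 440.3 and 459 CPM in astrocytes and at 349, 451, 294 and 312 CPM in OPCs. Its ranges over the libraries overlapped between those classes and not with the next, CA1 pyramidal neurons at 31.0, 49.5, 50.5 and 42.2 CPM. Astrocytes held 78.6%, 63.6%, 67.5% and 63.1% of its UMIs.

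Hapln1, the link protein of perineuronal nets, was mainly an astrocyte gene here. It stood at 145, 106, 114 and 197 CPM in astrocytes, at 45.8, 40.1, 72.8 and 59.0 CPM in inhibitory neurons and at 19.9, 18.8, 19.5 and 30.6 CPM in OPCs, 3 ranges that did not overlap. Astrocytes supplied 82.1%, 78.2%, 75.1% and 81.2% of its UMIs. At 1000 UMIs per nucleus, 13.3%, 9.24%, 11.5% and 17.5% of astrocytes had a Hapln1 UMI, against 0.894%, 0.392%, 0% and 0.253% of microglia. Before thinning the shares were 30.8%, 28.8%, 35.2% and 40.4% in astrocytes and 1.36%, 0.386%, 0% and 0.487% in microglia, at median depths of 2867, 3690.0, 4508 and 3056 UMIs in astrocytes.

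Hapln2, the link protein of the nodes of Ranvier, was highest in the oligodendrocyte classes. It was at 628, 758, 573 and 439 CPM in Enpp6-led oligodendrocytes and at 378, 369.6, 274 and 265 CPM in the other oligodendrocytes, and these ranges did not overlap. Within the oligodendrocytes, a subcluster led by Pcdh7, Kit and Synpr had 184, 221, 157 and 117 CPM, lower in every library than the subcluster led by Enpp6 and Cntn3 at 614, 739, 569 and 441 CPM.

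Hapln4, the brevican-binding link protein of neurons, was near the limit of detection. CA1 pyramidal neurons held 8.55, 7.76, 7.45 and 5.54 CPM, from 27, 8, 9 and 13 UMIs, and other excitatory neurons held 8.25, 7.81, 5.96 and 8.34 CPM. Inhibitory neurons held 10, 6, 3 and 3 UMIs. The ranges of these 3 classes overlapped, so their order is not resolved.

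Tnr, the tenascin that cross-links lecticans in nets, was the member most widely carried by neurons. OPCs stood at 3580.3, 3571, 3846 and 4321 CPM, dentate granule neurons at 569, 658, 668 and 759 CPM and CA1 pyramidal neurons at 406, 357, 454 and 501 CPM, and these ranges did not overlap. Inhibitory neurons followed at 325, 199, 339 and 335 CPM and other excitatory neurons at 312, 287, 278 and 347 CPM, whose ranges overlapped with each other. At 1000 UMIs per nucleus 93.5%, 96.0%, 95.8% and 96.6% of OPCs had a Tnr UMI, against 1.61%, 0.784%, 0.353% and 2.03% of microglia, and 99.2%, 99.6%, 100% and 100% against 2.37%, 3.86%, 1.06% and 3.89% before thinning. Dentate granule neurons held 42.4%, 31.5%, 31.0% and 30.5% of Tnr UMIs, beside 31.3%, 40.2%, 40.3% and 47.9% in OPCs.

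Tnc, the tenascin of astrocytes, neural stem cells and wounds, stood at 104, 76.5, 122 and 129.7 CPM in astrocytes and at 94.3, 56.4, 60.7 and 91.5 CPM in OPCs, with overlapping ranges. Fibroblasts followed at 13.1, 11.2, 12.7 and 11.4 CPM. Cspg5, a transmembrane proteoglycan of neurons and glia, stood at 1422, 1615, 1234 and 971 CPM in OPCs and at 1123, 915, 778 and 826 CPM in astrocytes, again with overlapping ranges.

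Across conditions, 74 of the 130 gene and class pairs passed the filter on low counts and were tested. Of these, 13 were called between PS19 and WT, 2 higher and 11 lower in PS19, in 5 genes and 7 classes. Over all 157279 gene and class pairs, 2.82% were called, 1.32% higher and 1.5% lower. The median log2 fold change of the tested pairs was -0.21, against 0.01 over all genes. In TG_PS19 against PS19, 11 pairs were called, 9 higher and 2 lower, in 7 genes and 6 classes, beside 4.7% of all pairs (3.05% higher, 1.64% lower), with a median of 0.19 against -0.01. Between TG_PS19 and WT, 3 pairs were called, 2 higher and 1 lower, beside 2.03% (1.43% higher, 0.603% lower). With DESeq2 in place of edgeR, 1 pair was called in each comparison: Cspg5 in oligodendrocytes between PS19 and WT, Hapln1 in astrocytes between TG_PS19 and PS19, and Tnr in dentate granule neurons between TG_PS19 and WT.

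**Figure D2:**
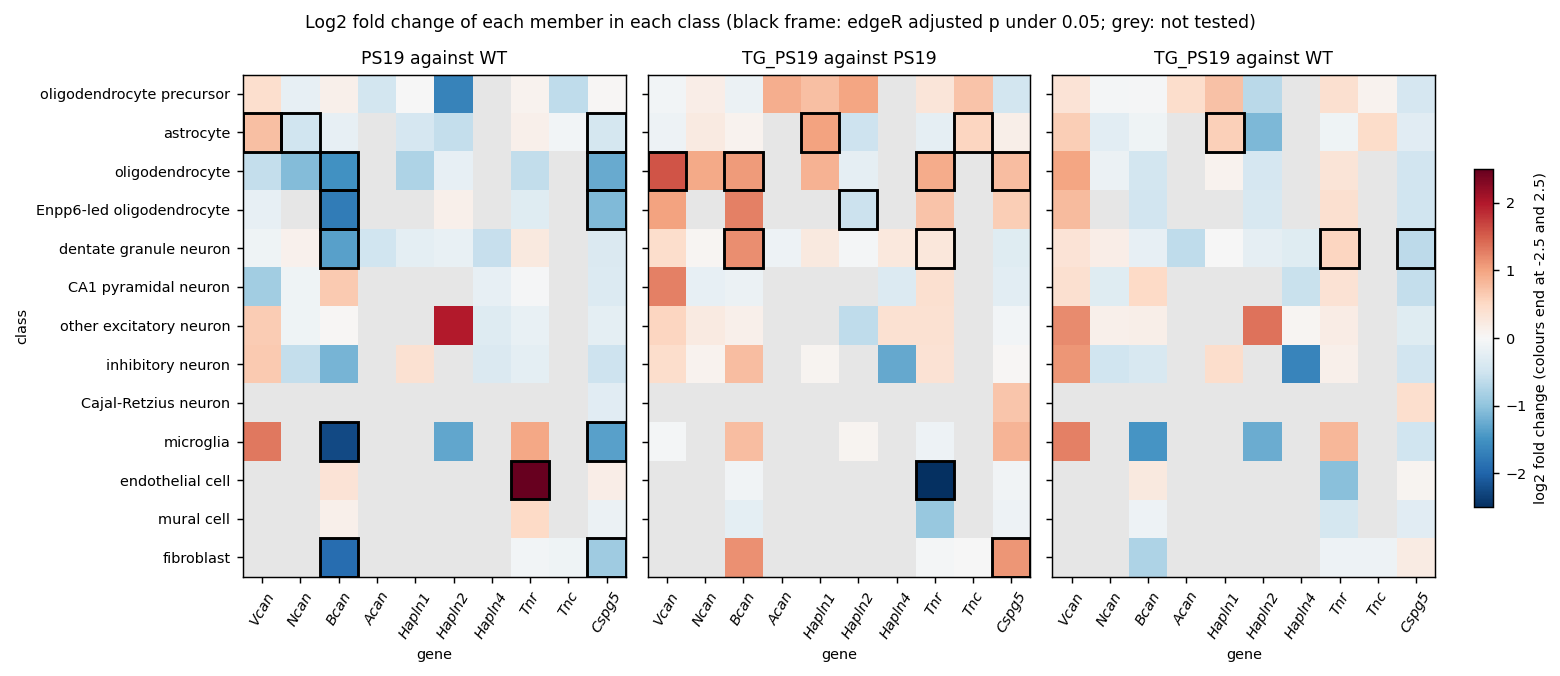
Fitted log2 fold changes of the 10 genes (columns) in 13 classes (rows) for 3 comparisons, with colours ending at ±2.5, grey for pairs not tested and a black frame for an edgeR adjusted p under 0.05. Calls between PS19 and WT are mostly lower Bcan and Cspg5 outside the precursors, and Hapln1 in astrocytes is called in TG_PS19 against PS19 and against WT.

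By role, lecticans gave 7 of the 13 calls between PS19 and WT (1 higher, 6 lower, of 30 pairs), Cspg5 gave 5 of its 13 pairs and tenascins 1 of 15. Link proteins gave 0 of 16 by edgeR and 0 by DESeq2, although edgeR's p before adjustment was under 0.05 for 2 of the pairs. In TG_PS19 against PS19, lecticans gave 3 of 30 pairs (3 higher, 0 lower) and link proteins 2 of 16 (1 higher, 1 lower). Tenascins gave 4 of 15 (3 higher, 1 lower) and Cspg5 2 of 13 (2 higher, 0 lower), beside 4.7% of all gene and class pairs. The OPCs, which lead 4 of the 10 genes among the 13 classes, had 0 members called in any comparison by edgeR and by DESeq2, while edgeR's p before adjustment was under 0.05 for 2, 4 and 3 of them in PS19 against WT, TG_PS19 against PS19 and TG_PS19 against WT. In OPCs 0.136%, 1.31% and 0.399% of all genes tested were called in these comparisons. The OPC values nearest to a call were Acan, at log2 fold change 0.92 ± 0.25, adjusted p = 0.0550 in TG_PS19 against PS19, and Tnc, at 0.72 ± 0.20, adjusted p = 0.0617.

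Astrocytes held members called in each direction. In PS19 against WT, 3 of 8 tested members were called in astrocytes, where 5.48% of all genes were. Vcan was higher in PS19: 22.8 CPM (95% interval 19.6 to 26.4) in WT, then 39.1 CPM (95% interval 31.6 to 47.7), 38.8 CPM (95% interval 32.4 to 46.1) and, in TG_PS19, 31.6 CPM (95% interval 27.0 to 36.7). Both PS19 libraries lay above WT, with TG_PS19 between WT and PS19, and the log2 fold change between PS19 and WT was 0.75 ± 0.20, adjusted p = 0.00459. Against WT, the TG_PS19 library gave 0.62 ± 0.22, adjusted p = 0.121. In OPCs, the leading class of the 13, PS19 against WT gave 0.41 ± 0.16, adjusted p = 0.583 and was not called.

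Ncan and Cspg5 were lower in PS19 astrocytes. For Ncan, 104 CPM (95% interval 97.3 to 112) in WT stood above 76.9 CPM (95% interval 66.3 to 88.7) and 73.4 CPM (95% interval 64.5 to 83.3) in PS19 and 77.9 CPM (95% interval 70.6 to 85.8) in TG_PS19. Its log2 fold change was -0.50 ± 0.15, adjusted p = 0.0179 between PS19 and WT and 0.23 ± 0.16, adjusted p = 0.452 between TG_PS19 and PS19. Cspg5, at 1123, 915, 778 and 826 CPM, was highest in WT, and the other 3 libraries lay below it, with -0.43 ± 0.13, adjusted p = 0.0262 between PS19 and WT. Bcan in astrocytes, with -0.20 ± 0.13, adjusted p = 0.543 and 0.08 ± 0.14, adjusted p = 0.813, was not called.

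Hapln1 and Tnc were higher in TG_PS19 astrocytes than in PS19 astrocytes, where 8.94% of all genes were called between those groups. Hapln1 gave 145 CPM (95% interval 137 to 154) in WT, 106 CPM (95% interval 93.9 to 120.3) and 114 CPM (95% interval 103 to 126) in PS19 and 197 CPM (95% interval 186 to 209.7) in TG_PS19, from 1165, 259, 380 and 1044 UMIs. The TG_PS19 library stood above all others and both PS19 libraries below WT. Log2 fold changes were 1.01 ± 0.14, adjusted p = 1.35e-10 for TG_PS19 against PS19, 0.60 ± 0.16, adjusted p = 0.0119 for TG_PS19 against WT, where 2.29% of all astrocyte genes were called, and -0.41 ± 0.14, adjusted p = 0.0591 for PS19 against WT. The call against PS19 held under all 13 alternative settings that were run with edgeR, from 0.94 to 1.08 when 1 PS19 library was left out. That against WT held under 7 of 12 alternatives run with edgeR. It was lost with doublets kept, scaling by library totals, no filter on low counts and relative log expression scaling. It was also lost when TG_PS19 nuclei were limited to those with Y-linked and no Xist counts, at 0.41 with an edgeR adjusted p = 0.307.

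Tnc was at 104, 76.5, 122 and 129.7 CPM in astrocytes, so TG_PS19 was highest, with PS19 replicate 2 next. A single nucleus of PS19 replicate 2 held 85 of its 404 Tnc UMIs, and without it that library stood at 96.2 CPM. In the other libraries no astrocyte held more than 14. The log2 fold change of Tnc in TG_PS19 against PS19 was 0.54 ± 0.15, adjusted p = 0.00417, and 0.25 without PS19 replicate 1 and 0.95 without PS19 replicate 2. Against WT it was 0.47 ± 0.16, adjusted p = 0.110. The Tnc call against PS19 held in 10 of 13 alternatives run with edgeR. It was lost with doublets kept, scaling by library totals and relative log expression scaling.

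**Figure D3:**
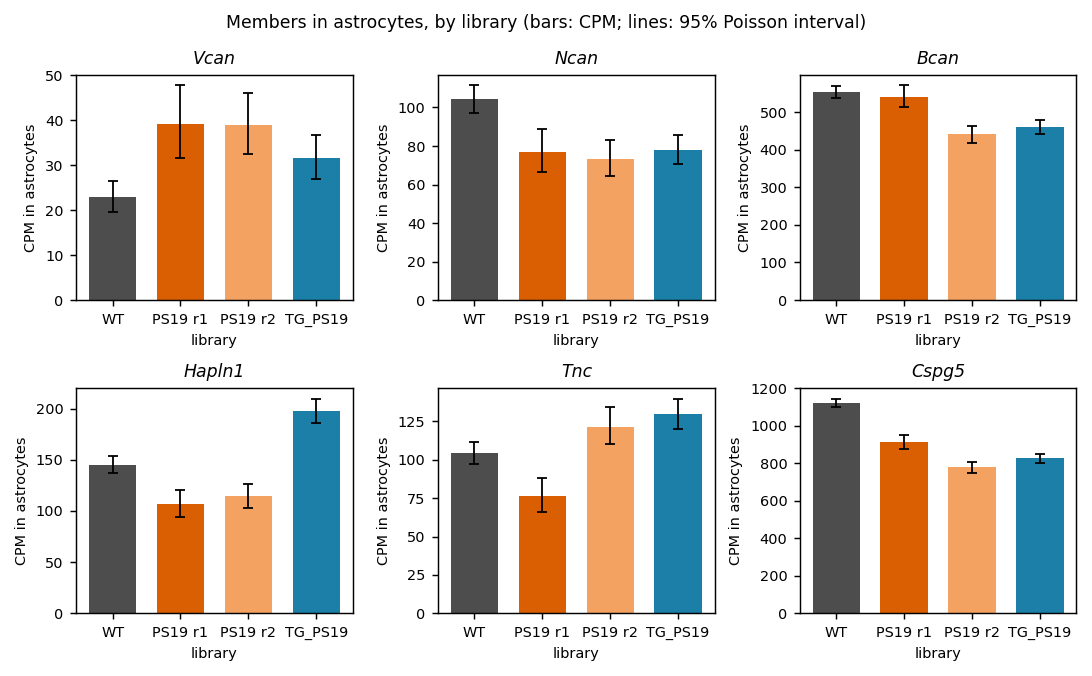
CPM of 6 matrix genes in astrocytes of each library, with exact Poisson 95% intervals as error bars, which cover counting error only. Vcan is lower in WT than in either PS19 library, Ncan and Cspg5 are highest in WT, and Hapln1 is highest in TG_PS19.

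The libraries differed in the kinds of astrocyte they held, and the matrix genes differed between those kinds. Of 8 astrocyte subclusters, the one led by Myoc, Cd44 and Gfap, genes of reactive or surface astrocytes, held 108, 173, 190 and 35 nuclei. In it Tnc stood at 417, 108, 186 and 549.8 CPM, Ncan at 344, 103, 80.5 and 147 CPM and Vcan at 29.0, 63.2, 53.3 and 29.5 CPM. Tnc and Ncan were thus lower there in both PS19 libraries than in WT and TG_PS19, and Vcan was higher. The nucleus with 85 Tnc UMIs lies in this subcluster, and without it Tnc in PS19 replicate 2 was at 104 CPM. These values were not tested.

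With this subcluster left out, the astrocyte calls of Vcan, Ncan and Cspg5 between PS19 and WT were lost. Their log2 fold changes were 0.45, -0.47 and -0.26, with edgeR adjusted p = 0.554, 0.123 and 0.553. Hapln1 stayed called in TG_PS19 against PS19, at 0.81 with an edgeR adjusted p = 7.2e-06, and Tnc gave 0.75 with 0.000211. In the subcluster led by Unc13c, Hapln1 was at 155, 144, 123 and 198 CPM, and in that led by Gabbr2 it was at 123, 127, 96.2 and 166 CPM. TG_PS19 was the highest library in both.

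Other astrocyte subclusters carried single members. Tnr, low in astrocytes as a class at 62.2, 76.1, 62.6 and 52.0 CPM, stood at 1035, 787, 464 and 517 CPM in a subcluster of 202 nuclei led by Gm29478, Stk32a and Zic4, with WT and PS19 replicate 1 above the other libraries. A subcluster of 306 nuclei led by Clstn2, Adgrv1 and Kcnq5 held Tnc at 325, 218, 157 and 519 CPM and Bcan at 167, 79.4, 92.2 and 141 CPM, its Bcan below that of astrocytes as a class in every library. That led by Gm49171 held Hapln1 at 215, 159, 220.1 and 268 CPM.

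**Figure D4:**
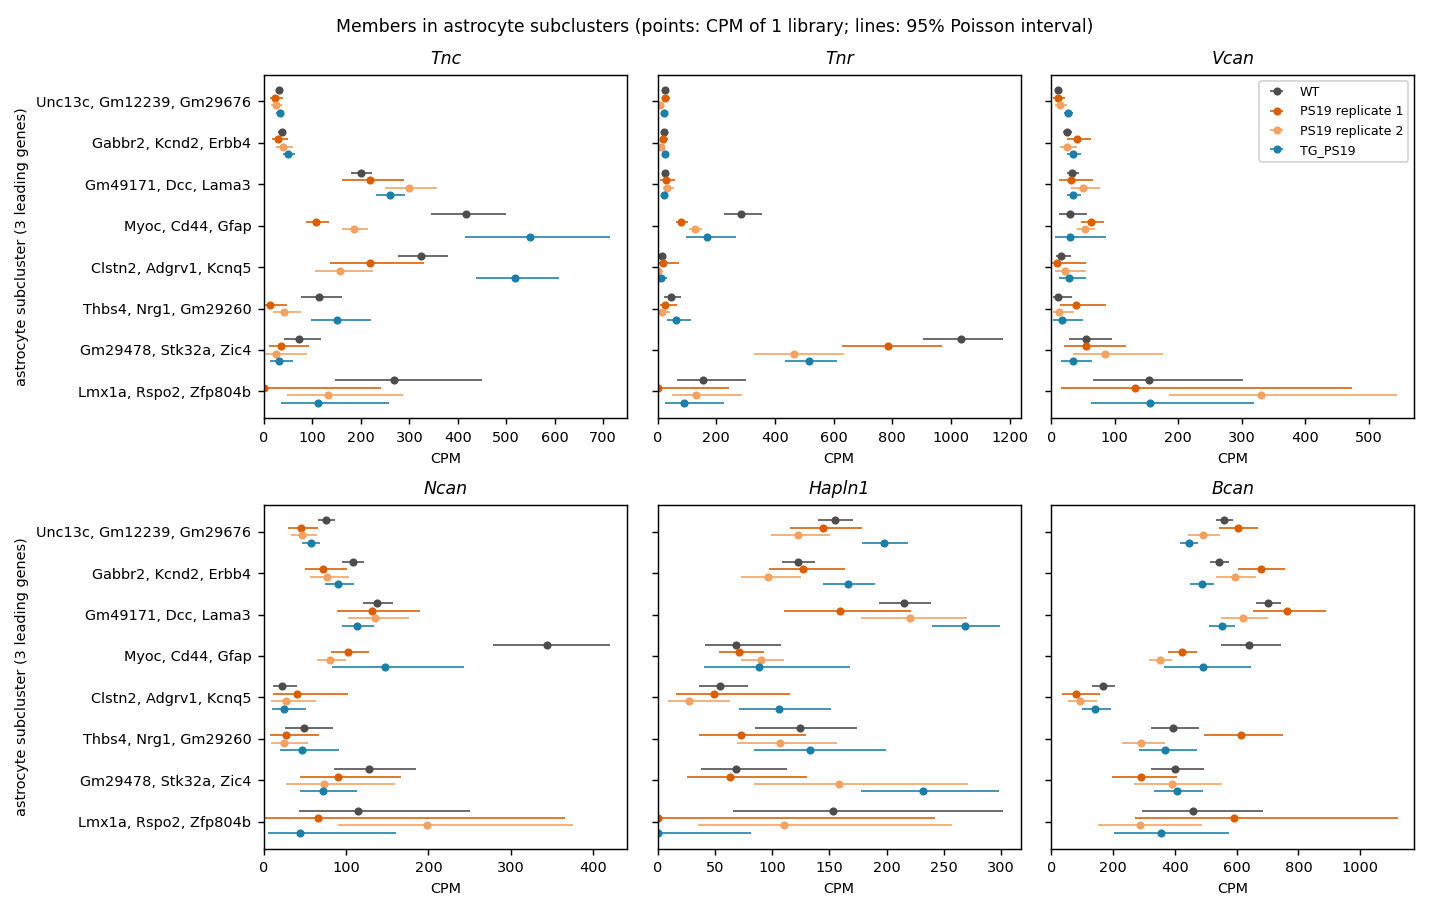
CPM of 6 matrix genes in 8 astrocyte subclusters, named by their leading genes, with 1 point per library and each panel on its own scale. Tnr is highest in the subcluster led by Gm29478 in every library, and Tnc in those led by Myoc and by Clstn2 is higher in WT and TG_PS19 than in PS19.

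Outside astrocytes and OPCs, Bcan was called lower in PS19 than in WT in 5 of 10 classes tested and Cspg5 in 4 of 11, and neither was called higher. The direction was not common to all classes. Bcan had a value above 0 in 4 of them, with 0.65 ± 0.24, adjusted p = 0.458, in CA1 pyramidal neurons, 0.34 ± 0.58 in endothelial cells, 0.12 ± 0.77 in mural cells and 0.02 ± 0.31 in other excitatory neurons. Cspg5 had 1, in endothelial cells, at 0.16 ± 0.35, adjusted p = 0.984. Oligodendrocytes had Bcan at 23.1, 7.98, 7.82 and 15.8 CPM, from 107, 24, 30 and 65 UMIs. WT was highest, both PS19 libraries were lowest and TG_PS19 lay between, with log2 fold changes of -1.51 ± 0.27, adjusted p = 1.39e-06 for PS19 against WT and 1.06 ± 0.29, adjusted p = 0.00725 for TG_PS19 against PS19. Among all genes of this class 6.85% and 8.26% were called. Cspg5 there was at 94.97, 47.9, 30.5 and 63.4 CPM, in the same order, with -1.26 ± 0.16, adjusted p = 6.69e-13 and 0.78 ± 0.17, adjusted p = 0.000245. Without PS19 replicate 2 the latter was 0.47, and without replicate 1 it was 1.10.

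In microglia, which should lack these proteoglycans, Bcan was at 41.0, 15.7, 2.53 and 13.8 CPM, from 41, 10, 2 and 10 UMIs, with -2.25 ± 0.51, adjusted p = 0.000343 between PS19 and WT. With 1 PS19 library left out, the value ranged from -3.94 without replicate 1 to -1.38 without replicate 2. Microglial Cspg5 was at 106, 53.4, 31.6 and 70.6 CPM, with -1.35 ± 0.27, adjusted p = 2.45e-05. The WT library was highest for both genes, and 8.97% of all microglial genes were called in this comparison. Enpp6-led oligodendrocytes, dentate granule neurons and fibroblasts gave Bcan log2 fold changes of -1.75 ± 0.40, adjusted p = 0.00152, of -1.37 ± 0.33, adjusted p = 0.00224 and of -1.91 ± 0.47, adjusted p = 0.00405. Of all genes in these classes, 2.8%, 3.11% and 2.46% were called. Cspg5 gave -1.10 ± 0.21, adjusted p = 3.17e-05 in Enpp6-led oligodendrocytes and -0.89 ± 0.26, adjusted p = 0.0273 in fibroblasts, both called, and -0.36 ± 0.12, adjusted p = 0.0756 in dentate granule neurons, not called. In TG_PS19 against PS19, Bcan was higher in dentate granule neurons at 1.17 ± 0.35, adjusted p = 0.0151 and Cspg5 in fibroblasts, where 1.65% of all genes were called, at 1.10 ± 0.29, adjusted p = 0.0146.

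Several values move with these low levels. At 1000 UMIs per nucleus, 9.70%, 4.66%, 3.002% and 6.47% of oligodendrocytes and 11.4%, 3.53%, 3.53% and 6.84% of microglia had a Cspg5 UMI. For Bcan the shares were 2.17%, 0.737%, 0.632% and 1.57% of oligodendrocytes and 4.11%, 1.18%, 0% and 0.506% of microglia. Before thinning they were 16.2%, 10.3%, 8.65% and 11.6% of oligodendrocytes and 15.6%, 9.65%, 7.75% and 11.2% of microglia for Cspg5. For Bcan they were 4.28%, 1.86%, 2.12% and 3.08% of oligodendrocytes and 6.44%, 3.09%, 0.704% and 2.43% of microglia. The thinned share of oligodendrocytes was at or below that of microglia in 3 of 4 libraries for Cspg5 and in 2 of 4 for Bcan, WT among them for both. It was not told apart from background there. Enpp6-led oligodendrocytes had thinned Bcan shares of 2.75%, 0.871%, 0.696% and 1.55%, against 4.41%, 1.91%, 1.74% and 3.37% before thinning. In dentate granule neurons they were 0.877%, 0%, 0.366% and 0.504%, against 5.89%, 3.36%, 2.75% and 5.64% before. In fibroblasts they were 2.38%, 0.610%, 0.345% and 1.48%, against 5.74%, 1.51%, 2.04% and 3.17% before. All 3 classes lay below the thinned share of microglia in WT and in PS19 replicate 1. They lay above it in PS19 replicate 2, as did Enpp6-led oligodendrocytes and fibroblasts in TG_PS19. For Cspg5, Enpp6-led oligodendrocytes had 6.81%, 3.83%, 3.65% and 5.76%, against 16.4%, 9.88%, 11.3% and 11.8% before thinning. Fibroblasts had 7.02%, 4.88%, 4.14% and 8.31%, against 14.6%, 10.3%, 11.2% and 17.3% before. Both classes lay below microglia in WT and above them in both PS19 libraries, and fibroblasts lay above them in TG_PS19 too. Where a share lay below that of microglia, it was not told apart from background. The 8 astrocyte markers, which oligodendrocytes should also lack, summed to 595, 248, 219 and 444 CPM there and to 356, 215, 193 and 263 CPM in dentate granule neurons, highest in WT and lowest in PS19 as for Bcan. In microglia the same sum was 776, 556, 572 and 707 CPM, with 7 or 8 of the 8 markers present. In fibroblasts it was 4828, 6082, 5716 and 6249.9 CPM, lowest in WT. The part of these counts in the differences was not tested.

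**Figure D5:**
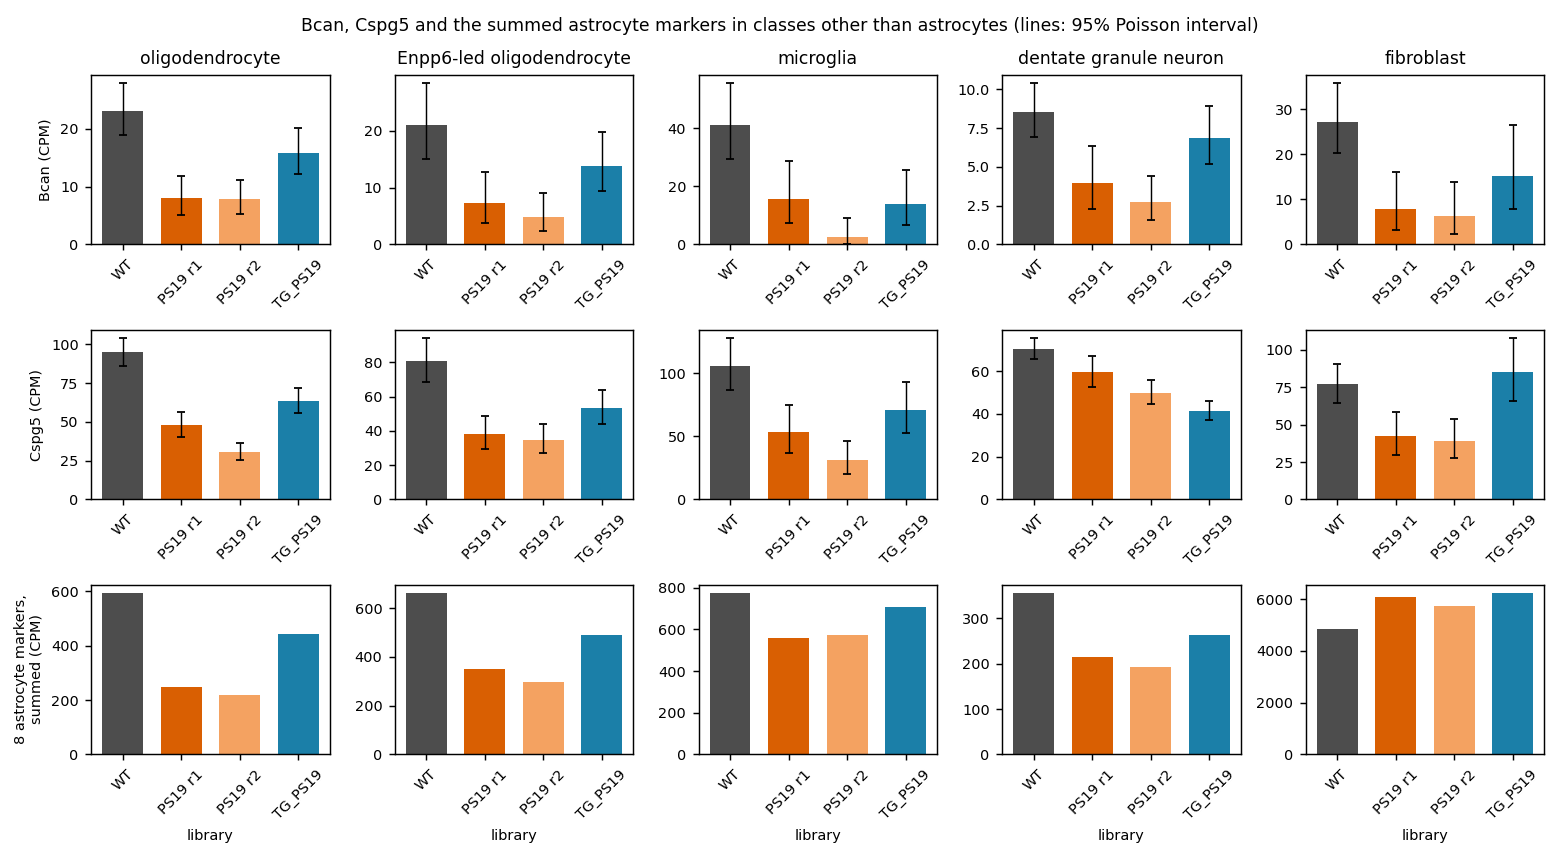
CPM of Bcan, Cspg5 and the summed 8 astrocyte markers in 5 classes that are not astrocytes or precursors, by library, each panel with its own scale. Bcan is highest in the WT library in all 5 classes, and the astrocyte marker sum shows the same order in oligodendrocytes and dentate granule neurons but not in fibroblasts.

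Dentate granule neurons gave the calls of Tnr that involve neurons. Tnr stood at 569 CPM (95% interval 555 to 583) in WT, 658 CPM (95% interval 634 to 683) and 668 CPM (95% interval 648 to 689.5) in PS19, and 759 CPM (95% interval 741 to 778) in TG_PS19, with TG_PS19 highest, WT lowest and no overlap of the groups. The log2 fold change was 0.53 ± 0.11, adjusted p = 0.000111 in TG_PS19 against WT, where 6.23% of all genes of the class were called, and it held in all 12 alternatives run with edgeR. It was 0.29 ± 0.10, adjusted p = 0.0317 against PS19, where 9.32% were called, and 0.13 with an edgeR adjusted p = 0.578 when only TG_PS19 nuclei with Y-linked and no Xist counts were used. The call against PS19 was also lost with scaling by library totals and after thinning to 2000 UMIs, and held in 10 of 13 alternatives run with edgeR. PS19 against WT gave 0.24 ± 0.10, adjusted p = 0.193. CA1 pyramidal neurons, at 0.41 ± 0.14, adjusted p = 0.104, and other excitatory neurons, at 0.38 ± 0.14, adjusted p = 0.137, were not called in TG_PS19 against PS19.

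Cspg5 counts in the same class were lower in TG_PS19 than in WT, with 70.6 CPM (95% interval 65.7 to 75.7) in WT, 59.5 CPM (95% interval 52.4 to 67.3) and 49.99 CPM (95% interval 44.4 to 56.0) in PS19, and 41.3 CPM (95% interval 37.1 to 45.9) in TG_PS19. The order of the groups was the reverse of that of Tnr. Their CPM values did not overlap, but the intervals of WT and PS19 replicate 1 did, as did those of PS19 replicate 2 and TG_PS19. In TG_PS19 against WT the log2 fold change was -0.66 ± 0.14, adjusted p = 0.000142, between -0.77 and -0.65 in the 12 alternatives run with edgeR. At 1000 UMIs per nucleus, 7.33%, 6.30%, 6.78% and 4.74% of dentate granule neurons had a Cspg5 UMI, and 37.7%, 41.2%, 40.7% and 28.4% before thinning. The thinned share was below that of microglia given above in WT and TG_PS19, the libraries of this comparison, and above it in both PS19 libraries. Before thinning, the share lay above that of microglia in every library, at a greater depth per nucleus. The part of background counts in this difference was not tested, so the difference is not assigned to expression by these neurons.

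Of the remaining calls, those of Tnr and Vcan in oligodendrocytes and of Tnr in endothelial cells were at low counts, and that of Hapln2 was not. In the oligodendrocyte sums TG_PS19 was higher than PS19 in Tnr, at 14.9, 11.3, 8.08 and 17.5 CPM and 0.93 ± 0.28, adjusted p = 0.0161, and in Vcan, at 4.33, 3.66, 2.08 and 8.02 CPM and 1.57 ± 0.49, adjusted p = 0.0229. At 1000 UMIs per nucleus, 1.70%, 1.23%, 0.395% and 1.92% of oligodendrocytes had a Tnr UMI, against 2.86%, 2.10%, 2.28% and 3.37% before thinning. For Vcan the shares were 0.298%, 0.245%, 0.158% and 0.606%, against 0.830%, 0.647%, 0.629% and 1.59% before. The thinned shares lay below those of microglia given above in TG_PS19 for both genes and in WT for Vcan. They were not told apart from background there, so neither call is assigned to expression by oligodendrocytes. Both calls, and those of Bcan and Cspg5 in that class and comparison, were lost with TG_PS19 nuclei that had Y-linked and no Xist counts, at 0.91, 1.43, 0.84 and 0.49. Hapln2 was lower in Enpp6-led oligodendrocytes of TG_PS19, with 628, 758, 573 and 439 CPM and -0.53 ± 0.15, adjusted p = 0.0167 against PS19, where 3.62% of all genes were called. This was -0.34 without PS19 replicate 1 and -0.71 without PS19 replicate 2. The Hapln2 call held in 9 of 12 alternatives run with edgeR. It was lost with scaling by library totals, with clusters at resolution 0.5 and after thinning to 2000 UMIs. In the other oligodendrocytes Hapln2 gave -0.22 ± 0.13, adjusted p = 0.372 and was not called.

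Tnr in endothelial cells was called in both comparisons, at 2.57 ± 0.48, adjusted p = 0.000831 and -3.62 ± 0.62, adjusted p = 0.000153, from 10, 20, 48 and 3 UMIs. Of all endothelial genes, 0.818% and 0.843% were called. Single nuclei held many of these UMIs, up to 11 and 28 in 1 nucleus of PS19 replicates 1 and 2. The 7 OPC markers summed to 75.4, 237, 189 and 81.5 CPM in the same endothelial sums, higher in both PS19 libraries. With doublets kept, both calls were lost, that against WT at 0.71 with an edgeR adjusted p = 0.416. Both were also lost after thinning to 2000 UMIs and with adjusted residual degrees of freedom. That of TG_PS19 against PS19 was lost as well with TG_PS19 nuclei that had Y-linked and no Xist counts.

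Inhibitory neurons were few, with 180, 57, 83 and 161 nuclei, and 0 members were called in them by edgeR and by DESeq2, while edgeR's p before adjustment was under 0.05 for 2, 0 and 1 in the 3 comparisons. Of all their genes, 0.552%, 1.65% and 1.48% were called. Their 11 subclusters, made without the matrix genes, differed in some net components. A subcluster of 23 nuclei led by Hapln1, Vcan and Pde11a held Hapln1 at 529.5, 92.8, 481 and 626 CPM and Vcan at 127, 0, 182 and 246 CPM. Its 4, 1, 9 and 9 nuclei per library are too few to compare groups. A subcluster of 46 nuclei led by Kit, Crispld1 and Ndnf held Hapln1 at 148, 195, 40.7 and 166 CPM.

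Another subcluster, of 49 nuclei led by Slit2, Myo1e and Nek7, resembled neurons marked by Lhx6, the lineage that includes parvalbumin neurons. It held Bcan at 81.6, 98.2, 49.8 and 44.97 CPM, from 21, 10, 4 and 8 UMIs, and Hapln4 at 23.3, 49.1, 12.5 and 5.62 CPM, from 6, 5, 1 and 1 UMIs. Of the 9 Acan UMIs of inhibitory neurons it held 7, of which 3 were in 1 TG_PS19 nucleus. These counts are too few to place the genes in a subcluster. No subcluster met the marker rule for a parvalbumin type, so net-bearing neurons were not set apart.

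Beyond the matrix genes themselves, 74 of 80 pathway genes in 7 lists were tested, in 628 gene and class pairs. In PS19 against WT 56 were called (8.92% of the pairs, against 2.82% of all gene and class pairs), 17 higher and 39 lower. In TG_PS19 against PS19 58 were called (9.24% against 4.7%), 41 higher and 17 lower. TG_PS19 against WT gave 19 (3.03% against 2.03%), 12 higher and 7 lower. The medians were -0.06, 0.01 and -0.05. Between PS19 and WT, other brain proteoglycans gave 21 of 147 pairs (14.3%), 4 higher and 17 lower. Gpc5 alone gave many of these calls, among them most of the higher ones, in the classes named below. Chondroitin sulfate chain synthesis gave 4 of 118 (3.39%), near the share of all pairs, and its sulfation 4 of 68 (5.88%). Most genes named below were chosen because they were called in both PS19 against WT and TG_PS19 against PS19. Those comparisons share the PS19 libraries, so that choice favours opposite directions in them, which are not a result.

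The hyaluronan genes Cd44 and Has2 were higher in PS19 astrocytes. Cd44, a hyaluronan receptor, was at 10.3, 69.9, 69.2 and 11.5 CPM, and PS19 stood far above the other groups, with 2.72 ± 0.21, adjusted p = 1.10e-34 against WT and -2.41 ± 0.22, adjusted p = 3.12e-24 for TG_PS19 against PS19. Has2, a hyaluronan synthase, followed the same order at 0.623, 5.76, 8.13 and 0.567 CPM, from 5, 14, 27 and 3 UMIs, with 3.42 ± 0.70, adjusted p = 7.48e-05 and -3.41 ± 0.81, adjusted p = 0.000689. Cd44 also leads the subcluster in which PS19 astrocytes were more frequent. Mmp14, a membrane protease of the matrix, went the other way at 43.3, 25.9, 18.1 and 34.8 CPM, with -1.03 ± 0.20, adjusted p = 1.24e-05 and 0.87 ± 0.21, adjusted p = 0.00103.

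In microglia, 8.97% of all genes were called in PS19 against WT and 9.16% in TG_PS19 against PS19. Xylt1, which starts chondroitin sulfate chains, was at 31.0, 132, 107 and 8.31 CPM, with 1.93 ± 0.29, adjusted p = 5.39e-09 and -3.73 ± 0.43, adjusted p = 1.12e-15. Cemip, which takes part in hyaluronan breakdown, gave 1.80 ± 0.52, adjusted p = 0.0102 and -2.24 ± 0.62, adjusted p = 0.00606, and its direction turned when doublets were kept. Itga9, an integrin that binds tenascins, was at 175, 118, 87.2 and 163 CPM, lower in PS19 at -0.79 ± 0.20, adjusted p = 0.00231. Chst11, a chondroitin sulfotransferase, gave -0.73 ± 0.20, adjusted p = 0.00707 in TG_PS19 against PS19. Chst7 and Dse, which sulfate and epimerise the chains, gave -1.19 ± 0.35, adjusted p = 0.0128 and 1.12 ± 0.36, adjusted p = 0.0251 between PS19 and WT. Rtn4rl1, a receptor of the Nogo receptor family, gave -0.71 ± 0.23, adjusted p = 0.0261 and 0.92 ± 0.24, adjusted p = 0.00252, the former -0.45 without PS19 replicate 1 and -1.07 without PS19 replicate 2.

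Among oligodendrocytes, 9 of the 10 named pathway genes were chosen for being called in both comparisons. Ptprz1, a receptor phosphatase that can carry chondroitin sulfate and is mainly known from astrocytes and OPCs, was at 62.3, 20.3, 15.9 and 47.1 CPM, with -1.76 ± 0.19, adjusted p = 3.73e-18 and 1.45 ± 0.20, adjusted p = 7.35e-11. Gpc5, an astrocyte glypican, was at 97.8, 20.3, 19.0 and 55.1 CPM there, with -2.28 ± 0.17, adjusted p = 2.36e-35 and 1.55 ± 0.19, adjusted p = 2.41e-13, and at 10889, 7703, 8688 and 11462 CPM in astrocytes. It was called in both comparisons in 9 classes, higher in PS19 in Cajal-Retzius neurons, endothelial cells and mural cells and lower in the other 6, and in the first 3 the direction between PS19 and WT turned with doublets kept. In mural cells the higher value rests on PS19 replicate 1, with 98.8, 479, 96.8 and 91.8 CPM, and without that library the log2 fold change was -0.0077. In oligodendrocytes, the order of the libraries for Ptprz1 and Gpc5 is that of the astrocyte marker sum given above for that class. Cntn1, Csgalnact1, Nptx1, Timp3, Timp4 and Spock3 were also called lower in PS19 and higher in TG_PS19 in oligodendrocytes. Spock3, a testican made by oligodendrocytes at 588, 385, 398 and 608 CPM, gave -0.55 ± 0.13, adjusted p = 0.000691 and 0.69 ± 0.13, adjusted p = 4.67e-06. Ptprs, a receptor of chondroitin sulfate, had the opposite order at 37.6, 52.8, 52.4 and 35.0 CPM, with 0.52 ± 0.18, adjusted p = 0.049996 and -0.53 ± 0.18, adjusted p = 0.0479. Gpc4 gave -3.38 ± 0.88, adjusted p = 0.00377 in PS19 against WT, from only 23, 1, 2 and 6 UMIs. In TG_PS19 against PS19 it gave 1.72 ± 1.16, adjusted p = 0.443 and was not called.

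In other classes, Sema3a, a guidance protein that nets retain, was at 346, 189.8, 235 and 352 CPM in fibroblasts, with -0.68 ± 0.16, adjusted p = 0.00278 and 0.77 ± 0.17, adjusted p = 0.00183. Nptx2, a neuronal pentraxin enriched at nets, was at 6.65, 7.24, 4.91 and 1.93 CPM in dentate granule neurons, with TG_PS19 lowest at -1.52 ± 0.43, adjusted p = 0.00754 against PS19. Its receptor Nptxr gave -1.47 ± 0.42, adjusted p = 0.0107 in astrocytes in PS19 against WT, from 69, 8, 10 and 31 UMIs. In inhibitory neurons Nptxr gave 1.75 ± 0.49, adjusted p = 0.0389 in TG_PS19 against PS19, from 27, 4, 9 and 35 UMIs. Both PS19 libraries had the lowest Nptxr CPM in both classes. Adamts9, a protease that cleaves lecticans, gave -1.12 ± 0.27, adjusted p = 0.00213 in other excitatory neurons of TG_PS19 against PS19.

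Genes with the most similar pattern over the 52 sums of class and library were sought by Pearson's r of log2(CPM + 10), as a description over sums that share libraries and depth. Hapln1 was closest to Nr2e1 (r = 0.94), a nuclear receptor of neural stem cells and astrocytes. Tnc was closest to 8030451A03Rik (0.97), which overlaps it, and to Hes5 (0.94), a Notch target, which was also nearest to Cspg5 (0.92). Bcan was closest to Pou3f2 (0.93), a neural transcription factor, Ncan to Shc3 (0.91), Vcan to Gucy2f (0.95), Acan to Scel (0.95), Tnr to 1700086L19Rik (0.93) and Hapln2 to 4930420G21Rik (0.98). Hapln4 did not reach 20 CPM in any sum and was not compared.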

How the data were processed

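Nuclei were profiled with a 10x Genomics 3′ kit, with about 10000 nuclei per run. The deposited values are raw UMI counts per gene and barcode, as the authors deposited them. The submitters' processing notes name Cell Ranger 7.1.0 and build GRCm38. Whether intron reads were counted is not given in the sources used here. The 10 genes and all lists were chosen with earlier results of these data known, so that no list serves as independent evidence.

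Nuclei with under 500 UMIs, under 300 genes or over 5% mitochondrial UMIs were left out, and likely doublets were scored within each library and removed at 0.8% per 1000 barcodes (1303, 172, 194 and 756 barcodes). Clusters came from 2000 variable genes, 30 principal components, 15 neighbours and the Leiden method (leidenalg 0.10.2) at resolution 1.0, without integration. A cluster was named from marker lists that hold none of the genes tested. UMIs summed per class and library were fitted with edgeR 4.0.16 (limma 3.58.1, R 4.3.3; filterByExpr, TMM scaling, quasi-likelihood test) over all 4 libraries, which leaves 1 residual degree of freedom, with DESeq2 1.42.0 as an alternative. CPM are UMIs of a gene per 1000000 UMIs of its class. The named pathway genes are those called in both PS19 against WT and TG_PS19 against PS19 in 1 class, or among the 2 with the largest change of their list. On simulated counts with 1 PS19 pair, the PS19 against WT fit recovered 48 of 96 genes changed 2-fold and 89 of 98 changed 4-fold among 16514 genes of astrocytes, and 27 of 98 and 76 of 98 among 12528 of OPCs. Over genes, the PS19 pair differed by a chi-square of 1.60 to 2.44 per degree of freedom within classes, so the 2 were kept as separate samples. Left out were clusters with under 50 nuclei in a library.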

Additional observations from a re-analysis of the deposited data

Results flagged for a closer look

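Tnr moved in different directions between TG_PS19 and PS19 in different classes: 0.29 in dentate granule neurons, 0.93 in oligodendrocytes and -3.62 in endothelial cells, as edgeR log2 fold changes. The difference between the classes was not tested, the TG_PS19 share of oligodendrocytes with a Tnr UMI was below that of microglia, and the endothelial value rests on 20, 48 and 3 UMIs in the PS19 and TG_PS19 libraries.

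In nuclei outside the 13 classes, the exact 95% interval of a member's CPM lay wholly above that of WT in the same cluster in 3 places. Other values above WT had intervals that overlapped that of WT. T cells of PS19 replicate 1 held Tnr at 1002 CPM, from 32 UMIs in 16 nuclei, while the 9 WT nuclei of that class held 0 UMIs. Vcan was at 189 CPM in PS19 replicate 2 in an unnamed cluster led by Sfta3-ps, Hpse2 and C230072F16Rik, against 55.3 CPM in WT, from 11 and 19 UMIs. Cspg5 was at 634 CPM in TG_PS19 in an unnamed cluster led by Ttr, Dynlt1a and Xist, against 361 CPM in WT, with 636 TG_PS19 and 53 WT nuclei.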

How the results depend on the processing

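Members called between PS19 and WT numbered 13 and were 1 with DESeq2 and 7 after thinning to 2000 UMIs. Between TG_PS19 and PS19 the 11 became 1 with DESeq2 and 5 with TG_PS19 nuclei that had Y-linked and no Xist counts. Between TG_PS19 and WT the 3 became 1 with DESeq2. Pathway genes called went from 56 to 5 with DESeq2 and 33 after thinning in PS19 against WT, from 58 to 10, 31 after thinning and 34 with the Y-linked nuclei in TG_PS19 against PS19, and from 19 to 0, 8 and 7 in TG_PS19 against WT. The cause was not tested. No named member value changed sign, and 302 of its 372 alternative values kept their side of the threshold. Of 856 values of named pathway genes, 687 kept it, 161 lost it and 8 turned: with doublets kept Cemip in microglia (-1.87 and 0.88) and Gpc5 in Cajal-Retzius neurons (-0.58), endothelial cells (-0.65 and 1.11) and mural cells (-1.17 and 0.24), and with the Y-linked nuclei Gpc5 in fibroblasts (-0.34). Gpc5 in mural cells also turned without PS19 replicate 1 (-0.0077), a value with no test. Scaling by library totals moved the median of all astrocyte genes to -0.19 in TG_PS19 against PS19. Counts under about 20 UMIs per sum limit Hapln4 and Acan outside OPCs. No paired analysis was possible because WT and TG_PS19 have 1 library each.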

Other observations

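Clusters too small or too uneven for the tests also carried matrix genes. Differentiating OPCs, a class of 71 nuclei (9, 20, 29 and 13 nuclei), held Tnr at 9032, 8768, 7919 and 6573 CPM and Bcan at 421, 480.2, 457 and 321 CPM. Tnr there lay above its level in OPCs in every library. Vcan was at 1174, 811, 686 and 466 CPM and Cspg5 at 211, 74.5, 23.3 and 11.1 CPM, with Cspg5 below its level in OPCs in every library.

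An unnamed cluster led by Sntb1, Gm34838 and Fabp7 held 282 WT nuclei of 283. It carried Hapln1 at 130.5 CPM, Cspg5 at 118.5 CPM and Bcan at 77.2 CPM in the WT library, and has no counterpart in the other libraries to compare. The choroid plexus class held 0 WT nuclei.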
